A study of Bos taurus with 6 samples.

Results

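Ribosome biogenesis genes are the genes whose products modify, cleave, fold and export the precursors of the ribosome. The members were the genes of the deposited expression table that carry the KEGG key for ribosome biogenesis in eukaryotes and not the key for the spliceosome, leaving out names that start with RPL or RPS. Of the 17663 genes on chromosomes 1 to 29, the only ones analysed, 65 had the ribosome biogenesis key. SNU13 was left out because it also had the spliceosome key, no name started with RPL or RPS, and 64 members remained. They lay on 26 of the autosomes, and 63 of them had enough reads to be tested.

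The study compared cultured fibroblasts of cattle (Bos taurus) fetuses that carried a fat-1 transgene with fibroblasts of wild-type fetuses. The fat-1 gene comes from a nematode and encodes a desaturase that makes omega-3 from omega-6 fatty acids, and the question of the comparison was which transcripts differ between the genotypes. The FT group was 3 fat-1 transgenic fetuses and the WT group 3 wild-type Luxi fetuses, all taken at 50 to 60 days of gestation, with 1 RNA library per fetus. Both groups were primary fibroblast cultures from trunk tissue free of organs and bone. The promoter of the transgene and the breed of the transgenic fetuses are not given in the sources used here, so genotype and genetic background cannot be told apart.

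The count table held 63366834, 48167642 and 54204446 counts in FT_1, FT_2 and FT_3, and 69777641, 51310741 and 54271927 in WT_1, WT_2 and WT_3. Values per library are given below as scaled CPM, the usual CPM (counts brought to a common library total) after edgeR's TMM scaling, always in the order of the replicate numbers. A gene was tested when its mean over the 6 libraries was at least 0.5 CPM, which left 12609 genes, and it was called higher or lower in FT at an edgeR p below 0.05 after Benjamini-Hochberg adjustment over all of them.

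The library FT_1 stood apart. Its biological coefficient of variation, the spread between libraries beyond counting noise, was 59.1% against FT_2 and 59.7% against FT_3, while FT_2 and FT_3 differed by 8.24% and pairs of WT libraries by 9.70 to 13.0%. Over the members alone the same values were 21.0% and 23.0% for the pairs with FT_1, 6.62% for FT_2 with FT_3, and 6.13 to 9.80% for the WT pairs. Results are therefore given with FT_1 and, where it changes them, without it.

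Marker genes showed what else differed between the cultures, counted as expressed at a mean above 1 FPKM (fragments scaled by gene length and by library total) over the 6 libraries. All 10 of 10 fibroblast markers passed this, and VIM was the most abundant over the 6 libraries. Within FT the mean of DCN was higher, 3221 FPKM against 3088 for VIM. The FPKM of the fibroblast markers summed to 6828, 17047 and 16783 in FT and 17821, 17272 and 17360 in WT, with PDGFRA called higher in FT. The sum of FT_1 was far below all others, while those of FT_2 and FT_3 lay near WT. Single genes differed where the sums were alike. VIM was at 1244, 3850 and 4171 FPKM in FT and 7891, 8178 and 7312 in WT. LUM was at 551, 2759 and 2559 FPKM in FT and 1224, 1117 and 1137 in WT. VIM was below WT in every FT library, not called by edgeR over 6 libraries (log2 fold change -1.17, adjusted p = 0.0883) and called lower by limma on FPKM (adjusted p = 0.0462). Of 6 contractile markers, 5 were above 1 FPKM and 5 were called higher in FT, with summed FPKM of 2489, 3758 and 3620 in FT and 1095, 1076 and 1201 in WT, ACTA2 leading. Of 6 epithelial and mesothelial markers, 4 were above 1 FPKM, with sums of 331.9, 53.4 and 55.5 in FT and 12.3, 11.3 and 17.2 in WT. By the mean over the 6 libraries MSLN was the most abundant of these, and it was called higher in FT. In WT the most abundant was CDH1, at 36.3, 7.11 and 8.41 FPKM in FT and 10.0, 7.83 and 13.9 in WT and not called. UPK3B was at 1.03, 0.1 and 0.09 FPKM in FT and 0.2, 0.25 and 0.25 in WT, also not called. KRT8, KRT18 and EPCAM were at 0 in all 3 WT libraries, while FT_1 had 84.1 FPKM of KRT8 and 0.57 of EPCAM. Skeletal muscle markers (2 of 5 in the table, MYF5 leading) summed to 0.06, 0.71 and 0.66 FPKM in FT and 1.2, 1.5 and 2.06 in WT, and MYF5 was above 1 FPKM in each WT library and below it in each FT library. Endothelial markers (5 of 5 in the table and 0 above a mean of 1 FPKM, PECAM1 leading) summed to 1.03, 0.47 and 0.49 in FT and 1.52, 1 and 1.19 in WT. KDR was at 0 in all 3 FT libraries. Macrophage and blood markers (5 of 7 in the table and 2 above 1 FPKM, CD14 leading) summed to 4.25, 4.12 and 3.56 in FT and 8.06, 6.72 and 7.77 in WT. CD68 was called lower in FT and HBA was at 0 in every library but FT_3. Neural markers (2 of 5 in the table and 1 above 1 FPKM, TUBB3 leading) summed to 2.03, 1.28 and 1.54 in FT and 2.77, 3.74 and 3.19 in WT, with TUBB3 called lower in FT. Without FT_1, edgeR also called COL1A1, PDGFRB, DCN, LUM, MYH11 and KRT8 higher and VIM, MYF5, PECAM1 and CD14 lower in FT, and all markers called with FT_1 kept their call. The part of any of these differences in the results on ribosome biogenesis genes was not tested, and in bulk cultures fewer cells of a type and less RNA per cell cannot be told apart.

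Ribosomes are assembled mainly in the nucleolus, where RNA polymerase I makes a long precursor that holds the rRNA of both subunits. Small nucleolar RNPs guide methylation and pseudouridylation of this precursor, large complexes called processomes fold it and cleave out the spacers, and GTPases and ATPases drive later steps before the subunits are exported to the cytoplasm. The work takes up much of the transcription of a growing cell, and fibroblasts raise it when growth factors make them divide.

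The members were expressed throughout. Their mean FPKM over the 6 libraries had a median of 13.2, and 57 of 64 were at 5 FPKM or more. The level of RAN was the highest at 318.7 FPKM and that of REXO2 came next at 128.1 FPKM. RPP25 had the lowest level, 0.143 FPKM, with 12, 1 and 6 counts in FT and 4, 4 and 6 in WT, and was the member not tested. The lowest level among the tested members was 3.44 FPKM.

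Summed over the members, the FT libraries held less. The 64 members took 0.321, 0.293 and 0.290% of all counts in FT and 0.392, 0.422 and 0.378% in WT. On the scale of scaled CPM their sum was 3172 ± 128 in FT and 3781 ± 205 in WT (SD, n = 3 each), so that FT stood at 83.9% of WT (75.8% as a share of counts and 69.5% in FPKM). Every FT library lay below every WT library in this sum. RAN weighed on it: without RAN the sum was 2972 ± 143 in FT and 3302 ± 154 in WT, 90.0% of WT. RAN supplied 11.6, 13.9 and 13.6% of the members' FPKM in FT and 23.6, 25 and 23.5% in WT. The FPKM of the whole table also summed to less in FT, 407533, 396565 and 390892, against 456349, 467653 and 453721 in WT.

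Gene by gene, the shift was smaller and went both ways. Of 63 tested members, 8 (12.7%) were called higher in FT and 16 (25.4%) lower, against 21.0% of all tested genes called higher and 19.9% called lower. In either direction, 24 members (38.1%) were called, near the 40.9% of all tested genes, so the number of calls does not set the members apart. The split between directions was less even among the members than among all genes. Their median log2 fold change was -0.09, with quartiles at -0.42 and 0.20, and that of all tested genes 0.04. The log2 fold change was under 0 in 38 of 63 members.

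Most changes were small. With the study's own call rule, an unadjusted p below 0.05 and a log2 fold change beyond 1 in either direction, TCOF1 was called higher, POP5 and RAN lower, and 60 members not at all, while 10.2% of all genes were called higher and 8.49% lower. Without scaling the log2 fold change of TCOF1 was 0.99, short of that rule, and GAR1 and POP1 also passed it as lower (both -1.09). This gave 0 higher and 4 lower, and without FT_1 the counts were 0 and 4 as well. The shares of all genes by this rule under these settings are not given here. The groups did not overlap in 33 members, 12 (19.0%) with every FT library above every WT library and 21 (33.3%) with every FT library below, against 29.1% and 29.8% of all tested genes (58.9% together). Without FT_1, 14 (22.2%) lay above and 35 (55.6%) below, against 38.8% and 39.6% of all tested genes. The differences between these shares were not tested.

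The balance between rises and falls depended on the scaling. Without scaling between libraries, the median of all tested genes moved from 0.04 to -0.10 and that of the members from -0.09 to -0.24, so that the members lay 0.13 below all genes both times. Without scaling 5 members were called higher and 21 lower, against 15.9% and 26.3% of all genes. The shares of members called were then 7.94% higher and 33.3% lower. With limma on the log2 of FPKM plus 1, a scale with no further adjustment, 4 members were called higher and 23 lower, against 15.0% and 29.2% of all genes (44.2% together). All 16 members called lower kept their call in both, while MDN1, REXO1 and XRN1 lost theirs in both and NOB1 lost it with limma. EMG1, RIOK2, RPP30, RPP40 and UTP15 were called lower in both but not with TMM scaling, and CSNK2A2 and FBL were called lower with limma and not with no scaling, all listed here after their values were seen.

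**Figure D1:**
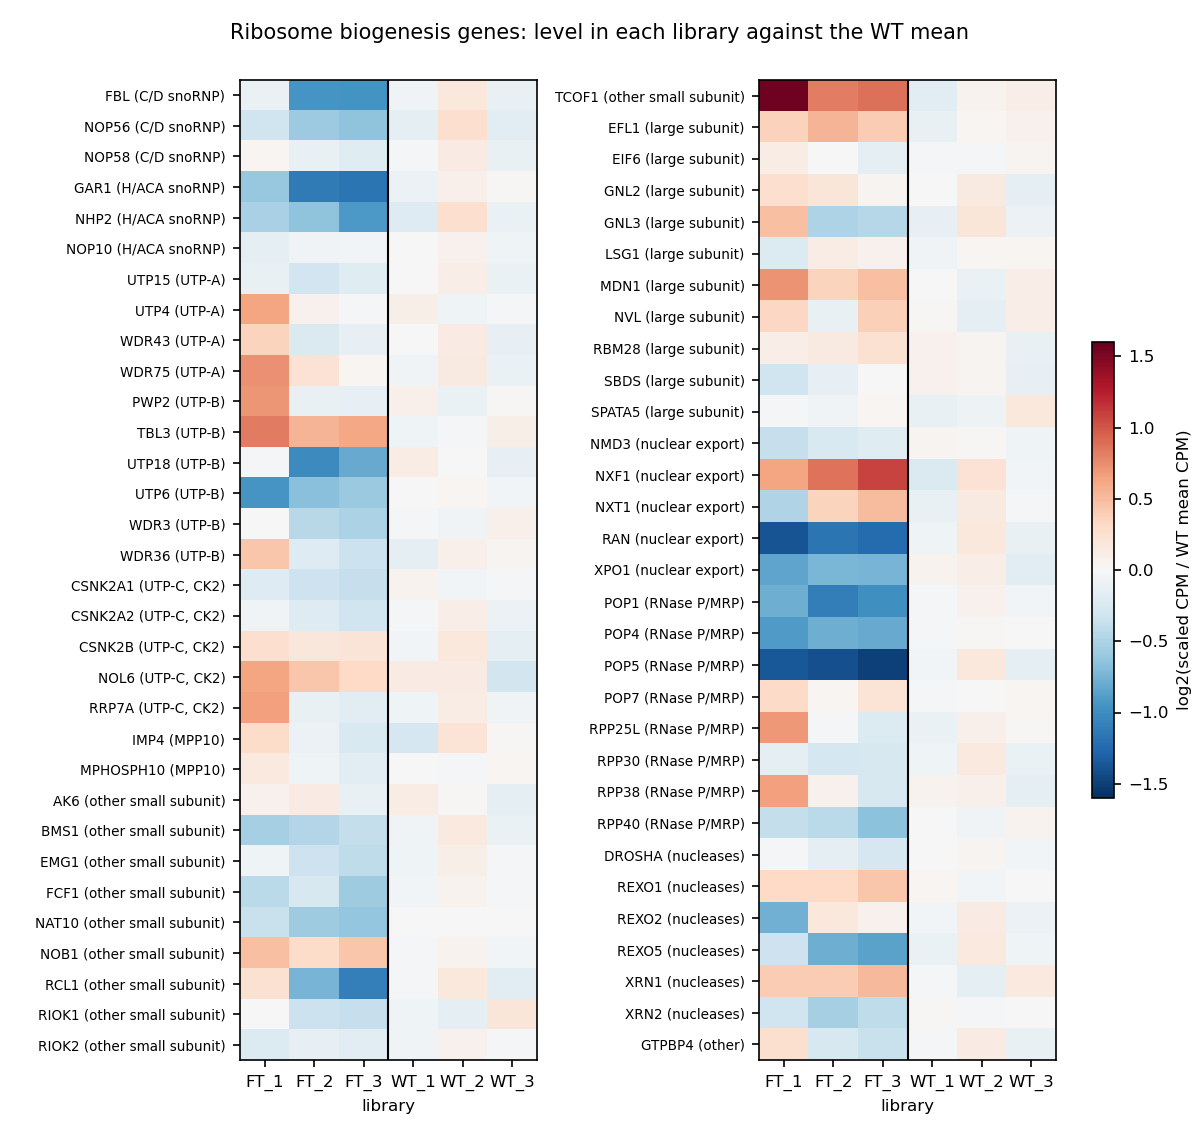
Each row is 1 of the 63 tested members, ordered by role, and each column 1 library; colour gives the log2 ratio of scaled CPM to the mean of the 3 WT libraries. RAN and POP5 are low in all 3 FT libraries and TCOF1 is high in all 3, while FT_1 departs from FT_2 and FT_3 in FBL, UTP18 and RCL1.

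Both kinds of small nucleolar particle that modify rRNA were among the members. The box C/D particle places methyl groups on ribose and the H/ACA particle turns uridine into pseudouridine, each guided by a small nucleolar RNA. Both particles were covered by 3 members, and 3 of these 6 genes were called lower and none higher, against 19.9% and 21.0% of all tested genes. With the trend on gene length removed, GAR1 was the one of the 3 that kept its call.

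In the box C/D particle, FBL is the methyltransferase and NOP56 and NOP58 are the scaffold that holds the guide RNA. FBL was at 65.8, 36.8 and 36.3 scaled CPM in FT and 67.7, 79.3 and 64.8 in WT. FT_2 and FT_3 lay far below every WT library and FT_1 within the WT range. FBL was not called over all 6 libraries (log2 fold change -0.61, SE 0.26, edgeR adjusted p = 0.108) and was called lower without FT_1 (log2 fold change -0.95, edgeR adjusted p = 1.16e-05) and by limma on FPKM over all 6 (adjusted p = 0.0450). NOP56 was at 99.97, 83.5 and 80.1 scaled CPM in FT and 113, 150.1 and 111 in WT, with every FT library below every WT library. It fell in FT (log2 fold change -0.51, SE 0.16, edgeR adjusted p = 0.0451), but this call was lost when any library other than FT_1 was left out, with edgeR adjusted p values of 0.0665 to 0.123. NOP58 was at 116, 105 and 99.7 scaled CPM in FT and 113, 124 and 105 in WT, where the groups overlapped, and was not called (log2 fold change -0.09, SE 0.10, edgeR adjusted p = 0.501).

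In the H/ACA particle, GAR1, NHP2 and NOP10 sit beside the pseudouridine synthase DKC1. GAR1 was at 12.9, 8.94 and 8.68 scaled CPM in FT and 18.3, 20.7 and 19.8 in WT, and the highest FT library stayed below the lowest WT library. GAR1 fell in FT (log2 fold change -0.95, SE 0.18, edgeR adjusted p = 0.00965), and the call held with any 1 library left out. NHP2, which binds the guide RNA, was at 22.1, 20.3 and 16.8 scaled CPM in FT and 27.6, 38.0 and 29.4 in WT, again without overlap, and fell (log2 fold change -0.68, SE 0.17, edgeR adjusted p = 0.0221). The call of NHP2 was lost without FT_2, FT_3, WT_2 or WT_3 (edgeR adjusted p of 0.0581, 0.0601, 0.0594 and 0.0532). NOP10, which bridges the synthase to the other subunits, was at 30.8, 32.8 and 33.0 scaled CPM in FT and 34.0, 35.7 and 32.4 in WT, with overlap, and was not called (log2 fold change -0.08, SE 0.08, edgeR adjusted p = 0.435).

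The small-subunit processome, the complex that forms on the start of the precursor, was covered by 4 modules. Its UTP-A, UTP-B, UTP-C and MPP10 modules together had 17 members, of which TBL3 was called higher and UTP6 and CSNK2A1 lower, against 21.0% and 19.9% of all tested genes. Without FT_1, 2 of the 17 were called higher and 6 lower, against 33.0% and 33.6%. The median log2 fold changes were 0.14 in UTP-A, -0.14 in UTP-B, 0.17 in UTP-C with casein kinase 2, and -0.01 in the MPP10 complex; with no scaling they were -0.0027, -0.29, 0.032 and -0.15, and without FT_1 -0.075, -0.37, -0.14 and -0.14.

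UTP-A binds the precursor first. Of its 4 members none was called, with log2 fold changes of 0.26 for UTP4, 0.02 for WDR43, 0.36 for WDR75 and -0.20 for UTP15. UTP15 was at 38.5, 33.8 and 36.6 scaled CPM in FT and 41.6, 45.0 and 39.1 in WT, every FT library below every WT library, and missed the call (log2 fold change -0.20, SE 0.09, edgeR adjusted p = 0.119). It was called lower without FT_1 (log2 fold change -0.25, edgeR adjusted p = 0.0329), and over all 6 libraries by edgeR with no scaling (adjusted p = 0.0302), by limma on FPKM (adjusted p = 0.0321) and by edgeR with the length trend removed.

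UTP-B, a module of 6 WD-repeat and helical-repeat proteins that joins after UTP-A, held changes in opposite directions. UTP6 was at 134, 162 and 171 scaled CPM in FT and 258, 263 and 249.7 in WT. Its FT libraries lay well below its WT libraries with no overlap, and it fell (log2 fold change -0.72, SE 0.11, edgeR adjusted p = 0.00460). TBL3 was at 36.9, 30.1 and 31.8 scaled CPM in FT and 19.7, 20.3 and 22.1 in WT. Here every FT library lay above every WT library, and TBL3 rose (log2 fold change 0.67, SE 0.11, edgeR adjusted p = 0.00527). Both calls held with any 1 library left out. UTP18, a member named after its values were seen, was at 30.5, 15.2 and 17.6 scaled CPM in FT and 33.4, 30.8 and 28.2 in WT. FT_1 lay among the WT libraries and FT_2 and FT_3 below them all, and UTP18 was called lower only without FT_1 (log2 fold change -0.91, edgeR adjusted p = 5.13e-05; with FT_1, log2 fold change -0.55, SE 0.27, edgeR adjusted p = 0.158). WDR36, also named after its values were seen, has a further row in the table on chromosome 10 that carries no KEGG key, with 972, 613 and 711 counts in FT and 1511, 795 and 1182 in WT, so reads of this gene may be divided between copies, and its member row on chromosome 7 was not called (edgeR adjusted p = 0.977).

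Casein kinase 2, which works with UTP-C, had 1 of its 3 subunits called. CSNK2A1, a catalytic subunit, was at 108, 99.1 and 95.9 scaled CPM in FT and 129, 121 and 123 in WT. No FT library reached the WT range and CSNK2A1 fell (log2 fold change -0.30, SE 0.08, edgeR adjusted p = 0.0257), a call lost without FT_2, FT_3, WT_1, WT_2 or WT_3, with edgeR adjusted p values of 0.0634 to 0.101. CSNK2A2, the other catalytic subunit, was not called (log2 fold change -0.19, SE 0.10, edgeR adjusted p = 0.186), and was called lower by edgeR without FT_1 (log2 fold change -0.26, edgeR adjusted p = 0.0300) and by limma on FPKM over all 6 libraries (adjusted p = 0.0448). CSNK2B, the regulatory subunit, was at 105, 98.7 and 100.2 scaled CPM in FT and 84.3, 97.7 and 78.9 in WT, every FT library above every WT library, and was not called (log2 fold change 0.22, SE 0.10, edgeR adjusted p = 0.126). In UTP-C itself, NOL6 was at 28.1, 24.8 and 22.7 scaled CPM in FT and 19.8, 19.9 and 14.8 in WT, also without overlap, and missed the call (log2 fold change 0.47, SE 0.15, edgeR adjusted p = 0.0536), which it passed without FT_1 (log2 fold change 0.39, edgeR adjusted p = 0.0274) and with DESeq2 over all 6 libraries. RRP7A (log2 fold change 0.17) and, in the MPP10 complex, IMP4 (0.00) and MPHOSPH10 (-0.02) were not called.

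**Figure D2:**
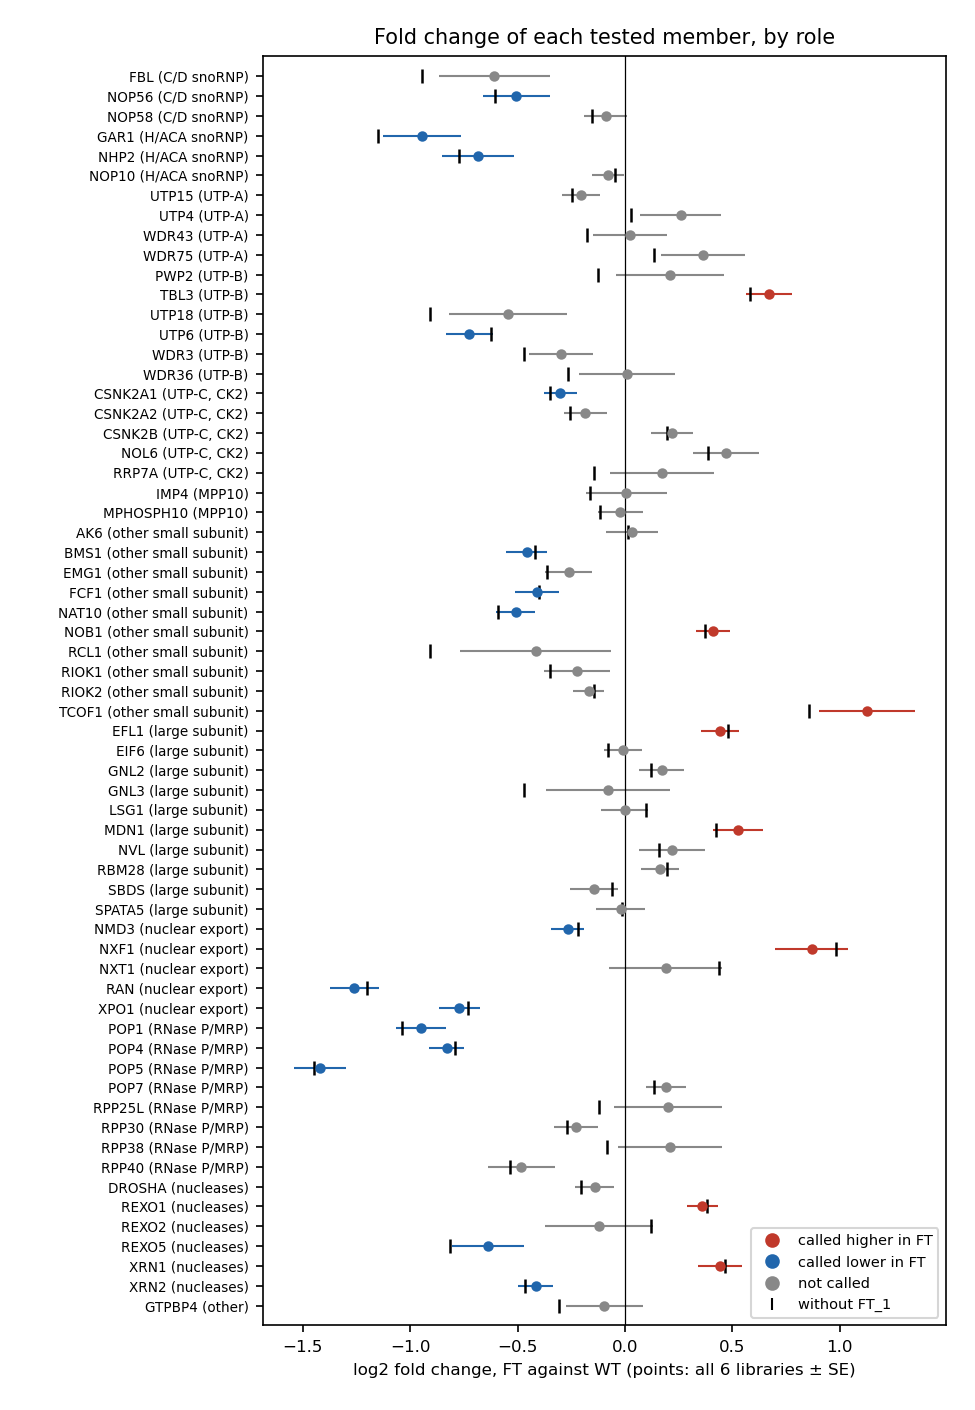
Log2 fold change of FT over WT for each tested member with its standard error (bars, n = 3 libraries per group), grouped by role, colour marking the call; the tick gives the value without FT_1. The ticks of FBL, UTP18, RCL1 and GNL3 lie well below their dots, and those of POP5, RAN and TBL3 close to theirs.

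Other factors of the small subunit held TCOF1, which had the largest rise among the members over all 6 libraries, while without FT_1 the largest was that of NXF1. Of 10 such genes, 2 were called higher and 3 lower, against 21.0% and 19.9% of all tested genes. With no scaling 2 were called higher and 5 lower, against 15.9% and 26.3%. Without FT_1, 2 were called higher and 6 lower, against 33.0% and 33.6%. TCOF1, whose protein treacle is a nucleolar scaffold that joins transcription by RNA polymerase I to processing, was at 65.4, 39.3 and 41.1 scaled CPM in FT and 19.8, 23.1 and 23.9 in WT. All FT libraries lay above all WT libraries, FT_1 highest. TCOF1 (ENSBTAG00000015224, chromosome 7, 61708261 to 61746787) rose (log2 fold change 1.13, SE 0.22, edgeR adjusted p = 0.0107), and without FT_1 the rise was smaller and still called (log2 fold change 0.86, edgeR adjusted p = 3.82e-05), though no longer past the log2 fold change of 1 of the study's rule. Without WT_1 its edgeR adjusted p was 0.0510, just past the threshold. NOB1, the nuclease that makes the final cleavage of small-subunit rRNA, was at 58.5, 51.5 and 57.0 scaled CPM in FT and 41.4, 43.5 and 40.8 in WT. Its FT libraries lay above the WT libraries without overlap, and NOB1 rose (log2 fold change 0.41, SE 0.08, edgeR adjusted p = 0.0101), with the call lost without WT_1 (edgeR adjusted p = 0.0528).

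The 3 falls in this role were those of NAT10, FCF1 and BMS1. NAT10, which acetylates cytidines in rRNA, was at 60.4, 52.3 and 50.1 scaled CPM in FT and 77.6, 76.9 and 77.3 in WT. The WT libraries were almost level and every FT library lay below them, a fall (log2 fold change -0.51, SE 0.09, edgeR adjusted p = 0.00740) that held with any 1 library left out. FCF1, a factor of the early cleavages and the member of this role with the highest FPKM, was at 23.5, 26.5 and 21.4 scaled CPM in FT and 30.7, 33.0 and 31.1 in WT. The groups did not overlap and FCF1 fell (log2 fold change -0.41, SE 0.10, edgeR adjusted p = 0.0233), with the call lost without FT_3, WT_1, WT_2 or WT_3 (edgeR adjusted p of 0.0622 to 0.0815). BMS1, a GTPase of the processome named after its values were seen, was at 69.9, 73.4 and 77.8 scaled CPM in FT and 97.0, 113 and 94.3 in WT, without overlap, and fell (log2 fold change -0.46, SE 0.10, edgeR adjusted p = 0.0133). Its partner RCL1, likewise named after its values were seen, was at 32.5, 16.4 and 12.9 scaled CPM in FT and 27.1, 31.0 and 24.4 in WT, with FT_1 above every WT library and FT_2 and FT_3 below them, and was called lower only without FT_1 (log2 fold change -0.91, edgeR adjusted p = 0.000218; with FT_1, log2 fold change -0.42, SE 0.35, edgeR adjusted p = 0.378).

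Factors that assemble the large subunit are ATPases, GTPases and their partners. Of 10 members, 2 were called higher and none lower, against 21.0% and 19.9% of all tested genes. Without FT_1, 2 were called higher and 1 lower, against 33.0% and 33.6%. With no scaling EFL1 was called higher and none lower, against 15.9% and 26.3%. The median log2 fold change was 0.08, and -0.067 with no scaling. EFL1 is the GTPase that, with SBDS, strips EIF6 from a new large subunit so that it can join a small one. EFL1 was at 57.1, 64.5 and 58.4 scaled CPM in FT and 40.8, 45.2 and 46.4 in WT. Every FT library exceeded every WT library and EFL1 rose (log2 fold change 0.44, SE 0.09, edgeR adjusted p = 0.0109), with an edgeR adjusted p of 0.0511 without WT_1. MDN1, a giant ATPase that pulls assembly factors off the precursor, was at 84.4, 65.9 and 72.2 scaled CPM in FT and 51.3, 47.8 and 55.3 in WT. The groups did not overlap and MDN1 rose (log2 fold change 0.53, SE 0.12, edgeR adjusted p = 0.0157), losing the call without WT_1 or WT_2 (edgeR adjusted p of 0.0652 and 0.0646). SBDS had the highest FPKM of this role and was at 234, 267 and 291 scaled CPM in FT and 307, 301 and 267 in WT. Its groups overlapped and it was not called (log2 fold change -0.14, SE 0.11, edgeR adjusted p = 0.342). GNL3, the nucleolar GTPase nucleostemin, named after its values were seen, was at 69.7, 35.5 and 36.4 scaled CPM in FT and 45.7, 56.9 and 46.8 in WT. FT_1 lay above every WT library and FT_2 and FT_3 below them all, and GNL3 was the large-subunit member called lower without FT_1 (log2 fold change -0.47, edgeR adjusted p = 0.00252; with FT_1, log2 fold change -0.08, SE 0.29, edgeR adjusted p = 0.849).

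Nuclear export held the most abundant member and one of the larger falls. RAN is the small GTPase whose bound form gives export and import their direction. RAN was at 183, 212 and 204 scaled CPM in FT and 457, 538 and 441 in WT. Its mean was 199.7 ± 15.0 in FT and 478.5 ± 52.2 in WT (SD, n = 3 each), and the highest FT library was far below the lowest WT library. RAN (ENSBTAG00000055033, chromosome 17, 46284520 to 46288136) fell (log2 fold change -1.26, SE 0.11, edgeR adjusted p = 0.00116), and did so without FT_1 (log2 fold change -1.20, edgeR adjusted p = 1.78e-06) and with any other library left out.

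XPO1, the exportin that carries both subunits out with RAN, was at 69.7, 75.7 and 74.9 scaled CPM in FT and 129.8, 134 and 112 in WT. The groups were apart, and XPO1 fell (log2 fold change -0.77, SE 0.10, edgeR adjusted p = 0.00249). NMD3, the adaptor between the large subunit and XPO1, was at 61.8, 67.5 and 69.7 scaled CPM in FT and 82.3, 80.7 and 76.4 in WT. It also lay lower in every FT library and fell (log2 fold change -0.27, SE 0.08, edgeR adjusted p = 0.0373), but lost the call without FT_2, FT_3, WT_1, WT_2 or WT_3 (edgeR adjusted p of 0.0611 to 0.131).

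NXF1 and its small partner NXT1 form the receptor for mRNA export and also carry the KEGG key for ribosome biogenesis. NXF1 was at 36.9, 43.5 and 50.4 scaled CPM in FT and 20.3, 28.1 and 23.2 in WT. The FT libraries lay above the WT libraries with no overlap. NXF1 (ENSBTAG00000009488, chromosome 29, 41099002 to 41111085) rose (log2 fold change 0.87, SE 0.17, edgeR adjusted p = 0.0104). Without FT_1 its rise was the largest among the members (log2 fold change 0.98, edgeR adjusted p = 8.95e-05), and the call held with any 1 library left out. It shares part of its span with TMEM223 in the table, so reads of the overlap could count for either. NXT1 was at 9.67, 17.2 and 19.1 scaled CPM in FT and 12.4, 14.8 and 13.1 in WT, FT_1 lowest of all 6 libraries and FT_2 and FT_3 above WT, and was called higher only without FT_1 (log2 fold change 0.44, edgeR adjusted p = 0.00682; with FT_1, log2 fold change 0.19, SE 0.26, edgeR adjusted p = 0.595).

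**Figure D3:**
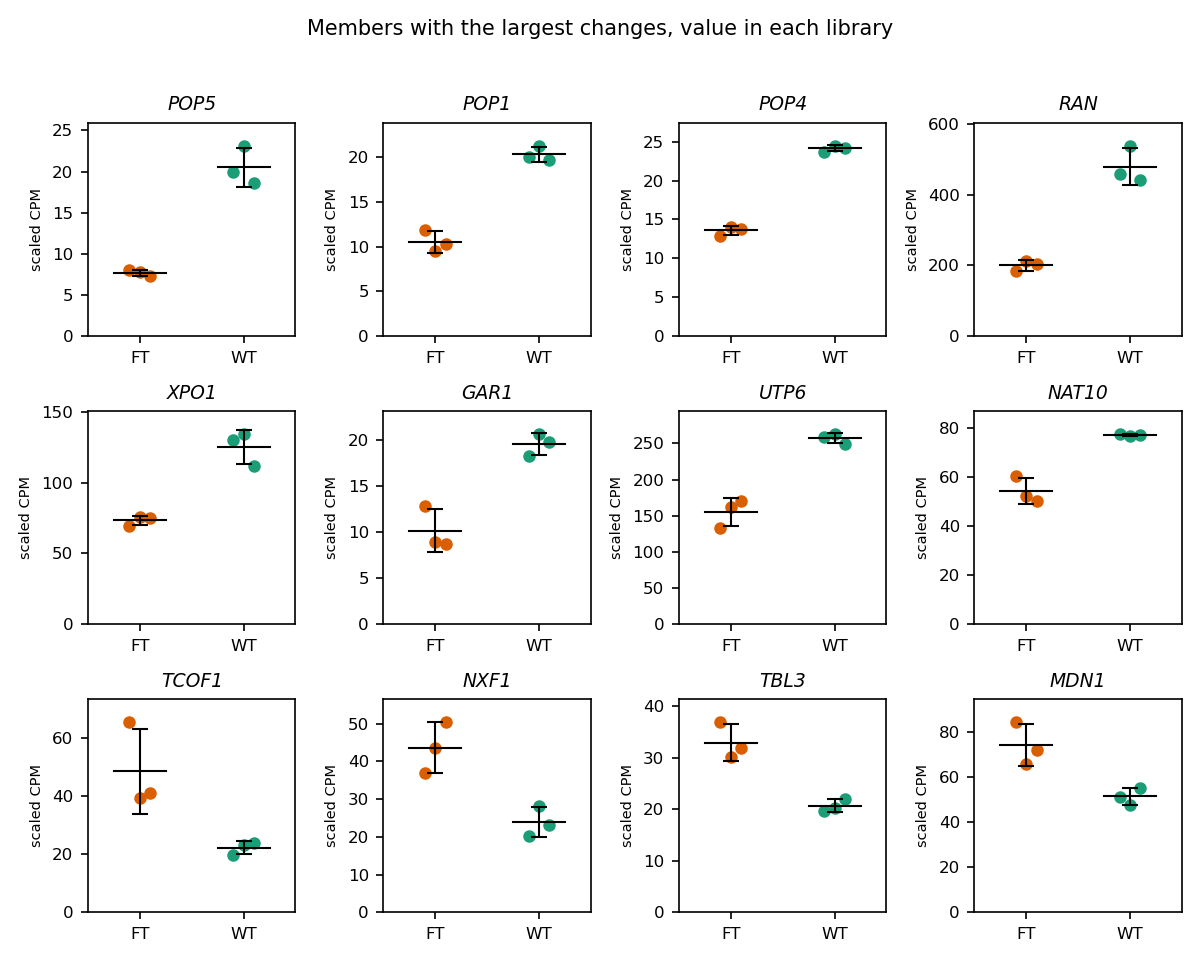
Scaled CPM in each library (dots) for 12 members with large changes, with group means (lines) and SD (bars, n = 3 libraries per group). The groups stay apart in all 12, with FT below WT in POP5, POP1, POP4, RAN, XPO1, GAR1, UTP6 and NAT10 and above it in TCOF1, NXF1, TBL3 and MDN1.

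RNase P and RNase MRP share most of their proteins. RNase MRP cuts the spacer between the rRNAs of the subunits, and RNase P trims the leading end of tRNA precursors. Of 8 tested members, 3 were called lower and none higher, against 19.9% and 21.0% of all tested genes, with a median log2 fold change of -0.36 (-0.22 with the length trend removed). Lower calls were 5 without FT_1 (against 33.6% of all genes), 5 with no scaling (26.3%) and 5 with limma on FPKM (29.2%). POP5 was at 8.02, 7.75 and 7.27 scaled CPM in FT and 19.9, 23.1 and 18.6 in WT. Its mean was 7.68 ± 0.383 in FT and 20.5 ± 2.36 in WT (SD, n = 3 each), with FT_1, FT_2 and FT_3 nearly level. POP5 (ENSBTAG00000005385, chromosome 17, 62851819 to 62854683) had the largest fall among the members (log2 fold change -1.42, SE 0.12, edgeR adjusted p = 0.00106), and it was as large without FT_1 (log2 fold change -1.45, edgeR adjusted p = 5.17e-06).

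POP1 is the largest protein of these particles and was at 11.9, 9.47 and 10.3 scaled CPM in FT and 20.0, 21.3 and 19.7 in WT. The groups were far apart, and POP1 fell (log2 fold change -0.95, SE 0.12, edgeR adjusted p = 0.00234). POP4, which binds the catalytic RNA, was at 12.9, 14.0 and 13.8 scaled CPM in FT and 23.7, 24.5 and 24.2 in WT, tight in both groups and without overlap. POP4 fell (log2 fold change -0.83, SE 0.08, edgeR adjusted p = 0.00134). All 3 POP calls held with any 1 library left out. RPP30, the member of this role with the highest FPKM, was at 24.9, 22.7 and 23.0 scaled CPM in FT and 26.4, 30.8 and 25.6 in WT. Every FT library lay below every WT library, and RPP30 missed the call (log2 fold change -0.23, SE 0.10, edgeR adjusted p = 0.122). It was called lower without FT_1 (log2 fold change -0.27, edgeR adjusted p = 0.0438), and over all 6 libraries by edgeR with no scaling (adjusted p = 0.0356) and by limma on FPKM (adjusted p = 0.0277). RPP40, named after its values were seen, had a log2 fold change of -0.48 (edgeR adjusted p = 0.0520) and was called lower without FT_1 (log2 fold change -0.54, edgeR adjusted p = 0.0115), with no scaling (edgeR adjusted p = 0.0248), by limma on FPKM and by DESeq2. On the other side, POP7, RPP38 and RPP25L, also named after their values were seen, had log2 fold changes of 0.19, 0.21 and 0.20 and were not called. Every FT library lay above every WT library in POP7. Without FT_1 the values were 0.13, -0.08 and -0.12.

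Of 6 nucleases that trim RNA, 2 were called higher and 2 lower, against 21.0% and 19.9% of all tested genes. With no scaling the counts were 0 and 2, against 15.9% and 26.3%, and with limma on FPKM 0 and 2, against 15.0% and 29.2%. XRN2 is the nuclear and XRN1 the cytoplasmic exonuclease that digests RNA from its leading end. XRN2 was at 111, 95.9 and 105 scaled CPM in FT and 140.4, 137 and 139 in WT, without overlap, and fell (log2 fold change -0.42, SE 0.08, edgeR adjusted p = 0.00981) with any 1 library left out as well. XRN1 was at 27.8, 27.9 and 30.2 scaled CPM in FT and 20.7, 19.0 and 23.5 in WT, also without overlap but on the other side, and rose (log2 fold change 0.44, SE 0.10, edgeR adjusted p = 0.0194), losing the call without FT_3, WT_1 or WT_2 (edgeR adjusted p of 0.0621, 0.0789 and 0.0632) and with no scaling. The difference between both genes' changes was not tested.

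Among the exonucleases that work from the other end, REXO1 was at 40.0, 40.0 and 43.6 scaled CPM in FT and 32.8, 31.2 and 32.2 in WT. Every FT library lay above every WT library and REXO1 rose (log2 fold change 0.36, SE 0.07, edgeR adjusted p = 0.0121), with edgeR adjusted p values of 0.0501 without WT_1 and 0.0516 without WT_2. REXO5, named after its values were seen, was at 19.7, 14.5 and 13.8 scaled CPM in FT and 23.2, 27.9 and 23.7 in WT, with FT below WT throughout, and fell (log2 fold change -0.64, SE 0.17, edgeR adjusted p = 0.0280). Its call was lost without any library but FT_1 (edgeR adjusted p of 0.0690 to 0.0966). REXO2, an oligoribonuclease with a large role in mitochondria, was at 89.1, 171 and 159 scaled CPM in FT and 147, 166 and 143 in WT, low in FT_1 and within or near the WT range in FT_2 and FT_3, and was not called (log2 fold change -0.12, SE 0.25, edgeR adjusted p = 0.724). GTPBP4, a GTPase of the large subunit that the role lists did not hold, was at 100.7, 70.7 and 66.0 scaled CPM in FT and 83.5, 92.7 and 77.6 in WT and was called lower only without FT_1 (log2 fold change -0.31, edgeR adjusted p = 0.00900; with FT_1, log2 fold change -0.10, SE 0.18, edgeR adjusted p = 0.696).

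Leaving out single libraries kept some calls and not others. In 12 of the 24 called members (50.0%, against 55.4% of the called genes among all tested), 2 higher (TBL3 and NXF1) and 10 lower (BMS1, GAR1, NAT10, POP1, POP4, POP5, RAN, UTP6, XPO1 and XRN2), the call held with each of the 6 libraries left out in turn. The other 12 lost it at least once. Without WT_1, 2 of the 8 rises and 11 of the 16 falls (68.8%) remained called, against 56.1% and 61.1% of those among all tested genes. Removing a trend on gene length took away the calls of MDN1, REXO1, XRN1, FCF1, NHP2 and NOP56 and added those of CSNK2B, a rise, and UTP15, a fall, and with no filter on low counts NMD3 and NOP56 were not called.

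Leaving out FT_1 had the opposite effect. Without it, 10 members were called higher and 28 lower, while the shares of all tested genes called were 33.0% higher and 33.6% lower (66.6% together). Those 28 are 44.4% of the tested members and the 10 are 15.9%. All 24 calls made with FT_1 were kept, NOL6 and NXT1 were gained among the rises, and CSNK2A2, EMG1, FBL, GNL3, GTPBP4, RCL1, RIOK1, RPP30, RPP40, UTP15, UTP18 and WDR3 among the falls, all listed here after their values were seen. The median log2 fold change was then -0.16 for the members and -0.01 for all tested genes.

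FT_1 tended to lie on the high side of its group in these genes. It was the highest of the FT libraries in 42 of 63 members (66.7%) and in 45.1% of all tested genes. In 14 members (22.2%, against 9.22% of all genes) FT_2 and FT_3 lay below every WT library while FT_1 did not. The reverse, FT_2 and FT_3 above every WT library and FT_1 not, held for NXT1 and LSG1, the latter named after its values were seen (3.17%, against 9.50% of all genes). In 8 members (12.7%, against 5.90%) FT_1 lay above every WT library and FT_2 and FT_3 below all of them. FT_1 is also the library with the highest epithelial and mesothelial sum, and the part of that in these values was not tested.

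**Figure D4:**
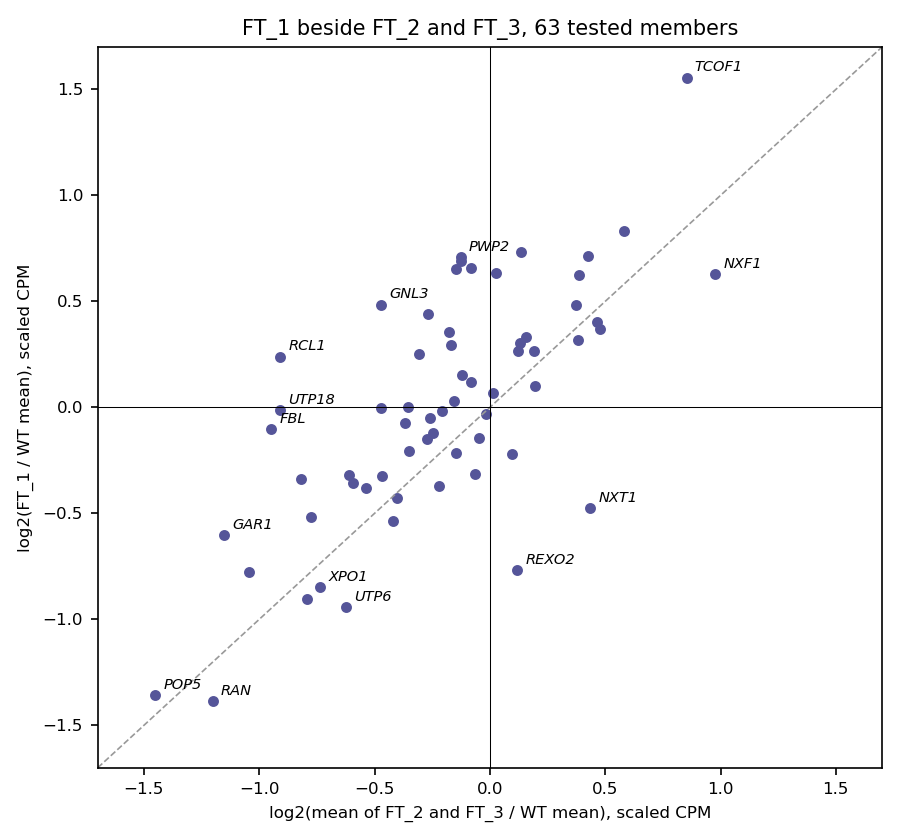
Each dot is 1 tested member; the horizontal axis gives the log2 ratio of the mean scaled CPM of FT_2 and FT_3 to the WT mean, and the vertical axis the same ratio for FT_1. Most members lie above the diagonal, FT_1 being the highest FT library in 42 of 63, and POP5, RAN, POP1, POP4 and XPO1 are low on both axes.

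Position was read from the table. There 19 members share part of their span with another gene, among them GAR1, NOP56, UTP6, FCF1, NOB1 and NXF1, and how reads in such overlaps were counted is not stated. POP5 and RAN lie on the same chromosome more than a megabase apart. Coordinates are those of the deposited table, which names no genome build.

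Genes that act with the members but lie outside the KEGG list were read from lists by function. Of 84 tested assembly factors, 11 were called higher and 14 lower, against 21.0% and 19.9% of all tested genes, and the median was -0.07. Without FT_1 the counts were 15 and 35 (17.9% and 41.7%, against 33.0% and 33.6% of all tested genes), and with no scaling 6 and 23 (7.14% and 27.4%, against 15.9% and 26.3%). The median was -0.18 without FT_1, -0.21 with no scaling and -0.0047 without FT_2. NCL, the nucleolar protein nucleolin, which binds the precursor, was at 479.7, 409 and 408 scaled CPM in FT and 668, 719 and 586 in WT. The groups were apart and NCL fell (log2 fold change -0.61, SE 0.12, edgeR adjusted p = 0.0107). NPM1, a nucleolar chaperone, was at 330.2, 278 and 275 scaled CPM in FT and 360.1, 393 and 366 in WT, without overlap, and fell (log2 fold change -0.34, SE 0.10, edgeR adjusted p = 0.0425), a call lost without any library but FT_1 (edgeR adjusted p of 0.0997 to 0.131). ESF1, a factor of small-subunit processing, was at 48.3, 53.9 and 60.0 scaled CPM in FT and 31.5, 31.3 and 31.5 in WT, far above in FT, and rose (log2 fold change 0.78, SE 0.10, edgeR adjusted p = 0.00245). BUD23, which methylates small-subunit rRNA, was at 30.1, 40.3 and 39.1 scaled CPM in FT and 74.0, 83.2 and 88.6 in WT, far below in FT, and fell (log2 fold change -1.17, SE 0.14, edgeR adjusted p = 0.00227). Of 8 tested genes that belong to the same roles but lack the KEGG key, HEATR1 and ERI1, named after their values were seen, were called lower and none higher, against 19.9% and 21.0% of all tested genes.

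RNA polymerase I and its factors transcribe the precursor. Of 16 tested genes of this machinery, 2 were called higher and 1 lower (18.8% in all, against 40.9% of all tested genes). Without FT_1 the counts were 3 and 3, against 33.0% and 33.6%, and with no scaling 1 and 3, against 15.9% and 26.3%. The median was 0.00, and -0.14 with no scaling. POLR1A, the largest subunit, was at 87.2, 56.0 and 55.0 scaled CPM in FT and 43.3, 40.5 and 47.6 in WT. Every FT library lay above every WT library, most of all FT_1, and POLR1A was not called (log2 fold change 0.59, SE 0.20, edgeR adjusted p = 0.0599). It was called higher without FT_1 (log2 fold change 0.34, edgeR adjusted p = 0.00452) and by DESeq2 over all 6 libraries. POLR1B, the second-largest subunit (log2 fold change 0.29, SE 0.18, edgeR adjusted p = 0.235), UBTF, which opens the rRNA genes (log2 fold change -0.27, SE 0.15, edgeR adjusted p = 0.190), and RRN3, which recruits the polymerase (log2 fold change 0.23, SE 0.09, edgeR adjusted p = 0.105), were not called by edgeR, and limma on FPKM called UBTF lower (adjusted p = 0.0455). POLR1D, a subunit shared with RNA polymerase III, was at 26.6, 28.6 and 27.0 scaled CPM in FT and 47.5, 50.1 and 46.6 in WT. Its groups were widely apart and POLR1D fell (log2 fold change -0.81, SE 0.07, edgeR adjusted p = 0.00114). TAF1C, of the promoter-binding complex, was at 9.80, 9.80 and 9.93 scaled CPM in FT and 5.38, 4.53 and 6.47 in WT, without overlap, and rose (log2 fold change 0.85, SE 0.17, edgeR adjusted p = 0.0114), with an edgeR adjusted p of 0.0534 without WT_1.

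The RNA exosome trims rRNA from its trailing end. Of 14 tested genes, 1 was called higher and 4 lower, against 21.0% and 19.9% of all tested genes. Without FT_1 the counts were 2 and 5, against 33.0% and 33.6%, and with no scaling 1 and 5, against 15.9% and 26.3%. The median was -0.10. It was 0.050 with the length trend removed, 0.030 without FT_3, -0.27 without FT_1 and -0.25 with no scaling. EXOSC10, the nuclear catalytic subunit, was at 116, 66.2 and 70.0 scaled CPM in FT and 40.1, 43.0 and 46.0 in WT. All FT libraries lay above WT, FT_1 highest, and EXOSC10 rose (log2 fold change 0.97, SE 0.23, edgeR adjusted p = 0.0208), with edgeR adjusted p values of 0.0819, 0.0766 and 0.0624 when WT_1, WT_2 or WT_3 was left out. EXOSC7, a subunit of the ring, was at 13.5, 15.1 and 16.0 scaled CPM in FT and 23.7, 25.1 and 24.9 in WT, below WT in every FT library, and fell (log2 fold change -0.72, SE 0.10, edgeR adjusted p = 0.00297).

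MYC, the transcription factor that drives many ribosome biogenesis genes, was at 272, 46.9 and 47.9 scaled CPM in FT and 50.7, 62.4 and 49.4 in WT. FT_1 had several times the level of any other library, FT_2 and FT_3 lay below every WT library, and MYC was called neither with FT_1 (log2 fold change 1.18, SE 0.74, edgeR adjusted p = 0.243) nor without it (log2 fold change -0.19, edgeR adjusted p = 0.128). In the MYC network, 5 of 11 tested genes were called higher and none lower, against 21.0% and 19.9% of all tested genes, with a median of 0.48. Without FT_1 the counts were 8 and 1, against 33.0% and 33.6%, and with no scaling 4 and 1, against 15.9% and 26.3%. MXI1, which competes with MYC for MAX, was at 32.6, 23.7 and 23.7 scaled CPM in FT and 13.2, 10.1 and 12.7 in WT, apart from WT, and rose (log2 fold change 1.15, SE 0.18, edgeR adjusted p = 0.00482). MAX, the shared partner, was at 27.1, 26.6 and 26.2 scaled CPM in FT and 22.1, 20.0 and 21.0 in WT and rose (log2 fold change 0.34, SE 0.08, edgeR adjusted p = 0.0174), losing the call without FT_2, WT_2 or WT_3 (edgeR adjusted p of 0.0525, 0.0643 and 0.0609).

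Of 13 further growth control genes, most of them from the mTORC1 pathway, 4 were called higher and 1 lower, against 21.0% and 19.9% of all tested genes. Without FT_1 the counts were 8 and 3, against 33.0% and 33.6%, and with no scaling 2 and 2, against 15.9% and 26.3%. The median was 0.35, and it was 0.20 with no scaling and 0.18 with limma on FPKM. EIF4EBP1, the brake on translation that mTORC1 releases, was at 57.5, 50.6 and 51.4 scaled CPM in FT and 28.6, 29.0 and 29.4 in WT. The FT libraries lay well above WT, and EIF4EBP1 rose (log2 fold change 0.87, SE 0.08, edgeR adjusted p = 0.00116). MDM2, a ubiquitin ligase that free ribosomal proteins can bind, was at 83.9, 68.7 and 68.1 scaled CPM in FT and 127, 120.5 and 127 in WT. Every FT library was far below WT and MDM2 fell (log2 fold change -0.76, SE 0.10, edgeR adjusted p = 0.00327). CDKN1A, which halts the cell cycle, was at 296, 171 and 196 scaled CPM in FT and 222, 209 and 218 in WT, with FT_1 above WT and FT_2 and FT_3 below it, and was called lower only without FT_1 (log2 fold change -0.24, edgeR adjusted p = 0.0162; with FT_1, log2 fold change 0.03, SE 0.21, edgeR adjusted p = 0.922).

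Cell cycle genes were read beside the members. Of 21 tested, 16 were called lower and none higher, against 19.9% and 21.0% of all tested genes. Without FT_1, 19 were called lower and none higher, against 33.6% and 33.0%, and with no scaling 16 and none, against 26.3% and 15.9%. The median log2 fold change was -1.29 beside -0.09 for the ribosome biogenesis genes. CDK1 was at 10.3, 10.9 and 9.49 scaled CPM in FT and 31.5, 35.1 and 28.8 in WT, and fell (log2 fold change -1.63, SE 0.11, edgeR adjusted p = 0.000688). PCNA, the replication clamp, was at 36.3, 45.5 and 43.9 scaled CPM in FT and 111, 143 and 103 in WT, and fell (log2 fold change -1.51, SE 0.16, edgeR adjusted p = 0.00169). MKI67, found in dividing cells, was at 63.7, 135 and 137 scaled CPM in FT and 275, 300.3 and 294 in WT, lowest in FT_1, and fell (log2 fold change -1.38, SE 0.30, edgeR adjusted p = 0.0149), with edgeR adjusted p values of 0.0558 without WT_2 and 0.0507 without WT_3. In all 3 the groups did not overlap. Whether the lower levels of some ribosome biogenesis genes go with the lower levels of cell cycle genes was not tested.

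**Figure D5:**
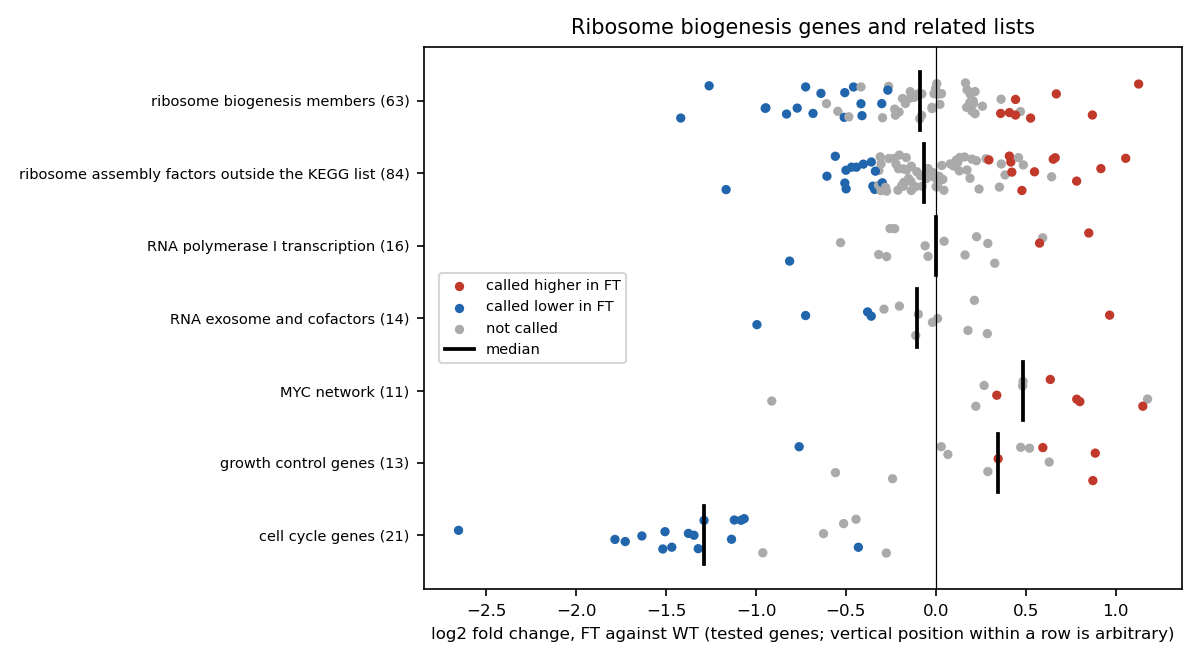
Log2 fold change of FT over WT for each tested gene of the members and of the related lists (dots), coloured by call, with the median of each list (bar). The medians run from -1.29 in cell cycle genes to 0.48 in the MYC network, and that of the members is -0.09.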

How the data were processed

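RNA was measured in 6 libraries, 3 FT and 3 WT. The deposited table holds, per gene and library, a raw count and an FPKM value made by the authors: reads aligned with HISAT to a UCSC genome, transcripts merged with Perl scripts, and expression estimated with StringTie and edgeR. The program that counted reads is not stated. The submitters' notes name Bowtie 0.12.2, HISAT2 2.0, StringTie 1.3.0 and mm8, a mouse build, though the genes carry cattle identifiers. The sequencer is a HiSeq in the methods and a NovaSeq in the labels.

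The deposited count columns were tested with edgeR 4.0.16 in R 4.3.3 (quasi-likelihood, TMM, mean CPM at least 0.5, Benjamini-Hochberg adjustment over all tested genes). edgeR was used because the table holds counts, as the study also names edgeR. SE is the size of the log2 fold change over the square root of the F statistic. An exact permutation test of 3 against 3 cannot go below p = 0.1 and was not used. Alternatives were median-ratio size factors, no scaling, no filter, DESeq2 1.42.0, limma 3.58.1 with a trend on log2 FPKM plus 1 or plus 0.1 (mean FPKM at least 0.5), a length trend (lowess span 0.3) removed, a block for the replicate number, and each library left out. The fit with no scaling and without FT_1 was chosen after seeing the data. Columns of the authors' own comparisons were not used, and genes outside chromosomes 1 to 29 were not analysed here. PWP2 and WDR36 took their names from RefSeq through the NCBI gene ID. The tests were tried on simulated data. There edgeR found fewer of the simulated 2-fold changes than the pass mark first set, and the mark was then moved to 4-fold changes. The simulated spread between libraries was capped below that of the pairs with FT_1 over all genes (59.1% and 59.7%). A gene not called may therefore differ by 2-fold or by more. The marker MYH11 had a log2 fold change of 2.93 and was not called (edgeR adjusted p = 0.0679).

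Genes were named by this rule: per role, the member with the highest FPKM and those with the smallest p called higher and lower; the 6 largest rises and falls called; roles of 5 or fewer members in full; NCL, NPM1, POLR1A, POLR1B, UBTF, RRN3, MYC, MAX, MXI1, CDKN1A, MKI67 and PCNA; and per related list the smallest p called higher and lower. A gene of the related lists is not reported here. The members and lists were chosen with earlier results of these data known.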

Additional observations from a re-analysis of the deposited data

How the results depend on the processing

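Median-ratio size factors, no filter and DESeq2 left the counts of members called in each direction within 1.5 times those reported. With no scaling between libraries, 5 members were called higher, 0 higher and 4 lower by the study's rule, 14 genes of the related lists were called higher, and the median of the members was -0.24. With limma on log2 of FPKM plus 1 and plus 0.1, 4 members each were called higher, 0 higher by the study's rule each, 14 and 15 related genes higher and 57 and 56 lower, with medians of -0.26 and -0.27, and 4 members lower by the study's rule with plus 0.1. With the length trend removed, 0 members were called higher by the study's rule. With no scaling and without FT_1, chosen after seeing the data, 38 members were called lower, 0 higher and 7 lower by the study's rule, 42 members lay below WT without overlap, 88 related genes and 5245 of all genes were called lower, and the median was -0.33. Leaving out each library in turn gave 2 to 10 members higher and 10 to 28 lower, 0 to 2 and 2 to 4 by the study's rule, 21 to 35 below without overlap, 11 to 36 related genes higher and 23 to 66 lower, 1498 to 4075 of all genes higher and 1532 to 4159 lower, and medians of -0.16 to -0.04. Among these the highest counts of calls by adjusted p came without FT_1 (28 members lower, 4075 of all genes higher and 4159 lower, and 36 related genes higher and 66 lower). By the study's rule no member was called higher without FT_1, and 2 were without WT_2. Members called higher were 2 without WT_1 and 5 without WT_2, and members called lower 10 without FT_3, WT_2 or WT_3. Of all genes, 1498 were called higher and 1532 lower without WT_1 and 1612 and 1595 without WT_2, and 11, 13 and 12 related genes were called higher without WT_1, WT_2 and WT_3 and 23 lower without WT_1. Members below WT without overlap were 35 without FT_1, 27 without WT_3 and 21 without each of the others. Groups of 2 and 3 separate more easily than 2 groups of 3, and of all tested genes 39.6% lay below WT without FT_1 and 29.8% with all 6 libraries (48.6% with no scaling and without FT_1). The cause was not tested.

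Some genes not called over the 6 libraries changed sign. WDR43 was at -0.12 with no scaling, -0.14 and -0.15 with limma, -0.056 with the length trend removed, -0.18 to 0.14 over single libraries left out, and -0.34 with no scaling and without FT_1. IMP4 was at -0.14, then -0.14 and -0.15 with limma, -0.0017 with the replicate block, -0.16 to 0.12 over libraries and -0.33 with both changes. RRP7A was at -0.020 and -0.029 with limma, -0.14 to 0.32 over libraries and -0.31 with both changes. CDKN1A was at -0.11, then -0.16 and -0.16 with limma, -0.011 with the block, -0.24 to 0.19 over libraries and -0.40 with both changes. NXT1 was at -0.016 and -0.021 with limma and -0.00095 to 0.44 over libraries. MPHOSPH10 was at 0.0034 and REXO2 at 0.077 with the length trend removed, and they spanned -0.12 to 0.051 and -0.29 to 0.12 over libraries. GTPBP4 spanned -0.31 to 0.021 and MYC -0.19 to 1.57 over libraries, and MYC was at -0.35 with both changes. UTP4, WDR75 and POLR1B were at -0.14, -0.026 and -0.083 with both changes. With both changes edgeR called WDR43, RRP7A, MYC and CDKN1A lower, on the other side of 0 (adjusted p of 0.00569, 0.0224, 0.0121 and 0.000706), and CDKN1A also without FT_1 alone (0.0162). The cause was not tested.

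Replicate numbers name different fetuses. Across genes, the residual correlations of libraries with the same number were -0.0148, -0.0283 and 0.0434. Residuals were taken from the mean of each group, and FT_1 stood apart, so these values cannot decide whether the numbers pair libraries. With the number as a block, edgeR called 8 members higher and 12 lower, 14 related genes higher, and 1917 of all genes higher and 1817 lower. It lost REXO1, CSNK2A1, NMD3, NOP56 and REXO5 and gained NOL6. The low level of RPP25 left it untested. Over all alternatives, named genes kept direction and side of the threshold in 765 comparisons, lost the call in 79, gained it in 34 and changed sign in 37.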
